A study of Mus musculus with 13 samples.

Results

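The cells described here are thymocytes that held transcripts of 5 genes tied to strong T cell receptor (TCR) signals, namely Tnfrsf9, Arhgap20, Ikzf2, Nr4a3 and Hecw2. They were chosen from split-pool single-cell RNA-seq of mouse thymus, among cells with 500 to 25000 unique molecular identifiers (UMIs). A member had at least 5 UMIs of these signal genes, from at least 2 of them, and at least 3 UMIs of the T cell genes Themis, Skap1, Bcl11b, Cd247 and Cd3e. It had no UMI of Foxp3, at most 1 UMI of the proliferation genes Mki67 and Top2a together, and at most 1 UMI of Zbtb16, a factor of innate-like T cells. The rule kept 2176 of 58756 thymic cells, and the Parse cell tables of the series held 148709 cells in all, other tissues included. Of 5661 cells that met the signal, T cell and Foxp3 limits, 2224 also met the limit on Mki67 and Top2a. The signal was thus not confined to members, and the cells dropped at this step are among the other cells compared below. The 10x Genomics cells of the study are not analysed here. All values of the genes named in the rule are descriptions, because they chose the cells.

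The study compared droplet and split-pool kits on thymic lobes of female C57BL/6N mice aged 2 months. The paper names no treatment and no transgene. The cells came from 4 lobes of 2 mice in the Parse WT kit (whole transcriptome) and from 4 lobes of 2 other mice in the smaller Parse Mini kit. The lobes are called WT samples 1 to 4 and Mini samples 1-A, 1-B, 2-A and 2-B. Both lobes of a mouse were separate samples, and the tables do not say which WT samples share a mouse, so p-values over the 8 samples are too small for a statement about mice. Kit, mice and sequencing run cannot be told apart.

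Thymocytes that carry both coreceptors, CD4 and CD8, are tested in the cortex against self peptides on MHC molecules. A weak signal lets them mature, and a strong signal leads to death, to regulatory T cells, or to precursors of the T cells that live between gut epithelial cells. Tnfrsf9 encodes the costimulatory receptor 4-1BB, Ikzf2 the Ikaros family factor Helios, and Nr4a3 an orphan nuclear receptor that TCR signals induce. Arhgap20 encodes a GTPase activating protein and Hecw2 a ubiquitin ligase. In GRCm38 annotation, Ikzf2 lies on chromosome 1 from 69531214 to 69687245 and Tnfrsf9 on chromosome 4 from 150914562 to 150946102.

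The members held 1150145 to 3373690 UMIs per sample, from 187 to 500 cells. Their median depth was 5614 UMIs and 2164.5 genes, against 2991 UMIs and 1362 genes in the 56580 other cells. The mean share of mitochondrial UMIs per cell was 5.19% in members and 5.39% in the other cells, and that of ribosomal RNA 17.95% and 20.1%. To bring depth closer, 8815 cells that met every limit of the rule except the signal genes were drawn by steps of depth, up to 5 for each member. They are called matched cells. Deep cells of this kind were too few, so the matched cells stayed shallower than the members, with a median of 4525 UMIs and a lower median in every sample. After seeing this, 2148 members and 2148 such cells were also compared in equal numbers per depth step, with medians of 5542 and 5511 UMIs. No full barcode occurred more than once within a kit, while 460 barcodes occurred in both kits. The 3-well combination of a cell recurred in another sublibrary for 45.7% of WT members and 12.8% of Mini members, against 34.9% and 13.5% of all cells of those kits. The WT value covers the other tissues too, so it is not a like set for WT members, and no excess is read from it. No doublet caller was run. The paper called doublets in the Parse data by computation and removed them, so cells it removed may be among the members here.

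Members made up 4.03% ± 1.00 (SD, n = 8) of the cells. The shares were 5.96%, 2.54%, 3.55% and 3.52% in WT samples 1 to 4. They were 4.02%, 4.77%, 3.97% and 3.94% in the Mini samples 1-A, 1-B, 2-A and 2-B. The WT samples spread more widely, 3.89% ± 1.46, than the Mini samples, 4.17% ± 0.397, and WT sample 1 stood above all others. The share depended on depth. As the mean of the 8 samples it was 1.10% among cells with 500 to 2000 UMIs, 4.00% between 2000 and 5000, 7.68% between 5000 and 10000 and 6.58% between 10000 and 25000. In the last step the samples ranged from 2.47% to 14.4%, with WT sample 1 the highest. WT sample 1 also had the highest median depth of members, 7513 UMIs, and the part of depth in its share was not tested beyond these values. When each cell was thinned to 3000 UMIs, the share was 3.77% ± 0.955, and 6.36% of the same cells were members before thinning. After thinning WT sample 1 was still the highest, at 5.19%, with Mini sample 2-A next at 4.58% and WT sample 2 lowest at 2.20%.

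**Figure D1:**
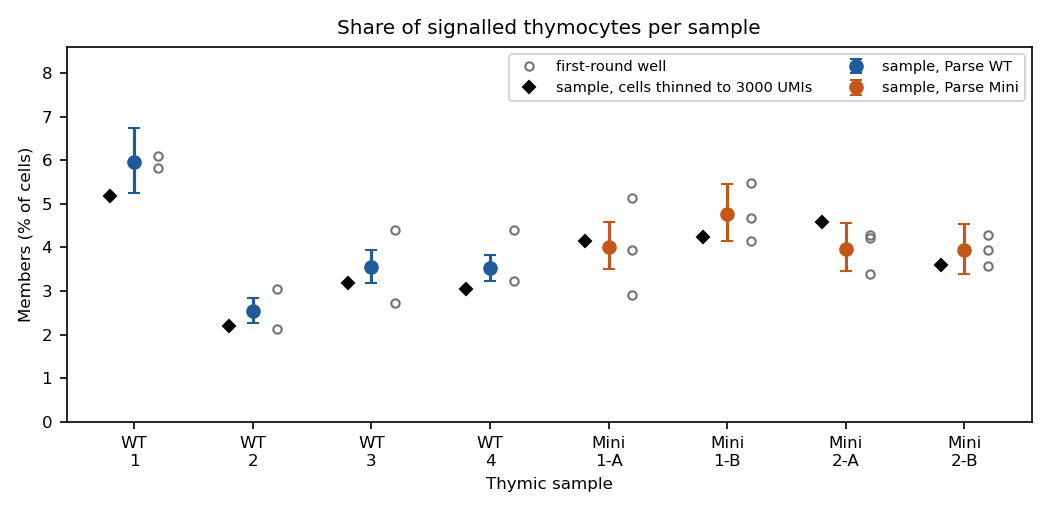
Percentage of cells that were members (vertical axis) in the 8 thymic samples (horizontal axis). Filled circles are samples with exact 95% binomial intervals for counting error only, open circles are first-round wells, and diamonds are cells of at least 3000 UMIs thinned to 3000. WT sample 1 is highest at 5.96% and WT sample 2 lowest at 2.54%.

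Most of the signal came from Ikzf2. It gave 75.7% of the signal UMIs of the members, Nr4a3 gave 13.6%, Hecw2 4.28%, Arhgap20 3.60% and Tnfrsf9 2.82%. A member held a median of 11 signal UMIs, with 180 as the largest value. UMIs of 2 of the 5 genes were present in 66.9% of members, 3 in 26.2%, 4 in 6.25%, and 15 members held all 5. Only 24 members had no Ikzf2 UMI. At least 5 Ikzf2 UMIs were held by 1659 members, 76.2%.

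Tnfrsf9 had a UMI in 24.1% of members (exact 95% interval 22.3 to 26.0), in 1.62% of matched cells and in 0.791% of 253 thymic cells with B cell markers. Those B marker cells, a reference that should lack the gene, had a median of 1117 UMIs. Nr4a3 had a UMI in 70.6% of members, 12.3% of matched cells and 6.32% of B marker cells. Ikzf2 had a UMI in 98.9%, 45.1% and 9.09%, so that Ikzf2 UMIs were common outside the members. Cells of the same limits with at least 5 UMIs of Ikzf2 alone, 1644 in all, could be drawn as matched cells. Levels are given as UMIs scaled to 1000000 UMIs outside ribosomal RNA (CPM). The lowest, median and highest Tnfrsf9 level over the 8 samples was 66.0, 81.4 and 126 CPM in members and 4.91, 6.61 and 11.6 CPM in the other cells. Ikzf2 was at 1895, 2230 and 2983 CPM in members and at 408, 451 and 514 CPM in the other cells.

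**Figure D2:**
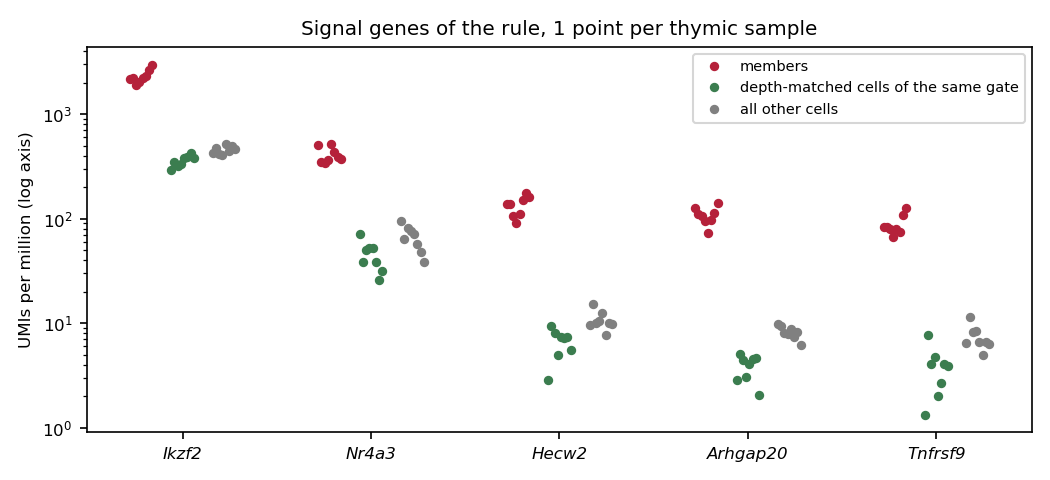
Level of the 5 signal genes in CPM (log axis), with 1 point per thymic sample, in members, in matched cells and in all other cells. These genes chose the members, so the gap between the groups is a description.

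The 263 members with exactly 5 signal UMIs had 3.06 CPM of Itgb8, 8.41 CPM of Pdcd1, 80.3 CPM of Cd69, 30.6 CPM of Relb and 2.29 CPM of Gadd45b. The 335 cells just outside, with 4 signal UMIs of at least 2 genes, had 1.30, 3.26, 56.1, 31.9 and 8.48 CPM of the same genes. Relb and Gadd45b were not lower outside the limit. The 1261 members with at least 10 signal UMIs had 44.3, 32.9, 123, 83.5 and 18.3 CPM. A further 1716 cells had at least 5 UMIs of a single signal gene, which was Ikzf2 in 1644 of them. These 1644 cells had 4.33 CPM of Itgb8, 11.9 CPM of Pdcd1 and 662 CPM of Cd5, above the members with exactly 5 signal UMIs, which had 514 CPM of Cd5, but 61.3 CPM of Cd69 and 25.3 CPM of Relb, below them.

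Some members carried genes of other lineages, or Il2ra, a gene of early thymocytes and regulatory T cells. Dendritic cell genes reached at least 3 UMIs in 48 members (2.21%, against 1.83% of matched cells), gamma-delta T cell genes in 144 (6.62% against 2.80%) and Il2ra in 149 (6.85% against 3.17%). Together these were 273 members, 12.5%, with a range of 9.63% to 14.8% over samples. The 48 cells with dendritic cell genes had a median of 10779.5 UMIs, against 5188 UMIs in the 1903 members without any of the 3. A cell could hold more than 1 of these marks. The 144 cells had 677.8 CPM of Il2ra, 423.6 of Notch1, 90.9 of Erg and 80.31 of Kit. The 1903 members, chosen in part by low Il2ra, had 17.94, 81.63, 4.382 and 19.67 CPM. Rag1 was at 678.6 and 750.7 CPM. Whether the 144 are gamma-delta cells or early thymocytes was not tested. B cell markers reached 3 UMIs in 4.69% of members and 3.47% of matched cells, and macrophage markers in 0.597% and 0.431%. Epithelial markers did so in 2 members, with Krt8 and Foxn1 at 0. Markers of the early stage without coreceptors did so in 364 members (16.73%, against 11.03% of matched cells). A list of natural killer and gamma-delta markers gave 2.16% and 0.794%. Plasmacytoid dendritic and neutrophil markers gave 10.39% and 8.667%, and antigen-presenting cell markers 2.206% and 1.758%. The first of these lists holds Tcf4, at 159.6 CPM in members in equal numbers per depth step and 186.8 CPM in the cells compared. Siglech and S100a9 of that list were at 1.533 and 1.68 CPM in members. The part of Tcf4 in the 10.39% was not tested, so it is no share of cells with genes of those lineages. Matched cells were shallower, and the part of depth in these shares was not tested. The dendritic and gamma-delta gene lists that marked the 273 cells, and the cells marked by Il2ra, were added after the data were seen. Where a gene named below lost its call without the 273 cells, this is said beside it.

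Compared with all other cells, 1844 of 15087 tested genes were higher in members (12.2% of the genes tested) and 2350 were lower (15.6%), or 27.8% in either direction. Against the matched cells, 1336 of 11839 genes were higher (11.3%) and 1310 lower (11.1%), or 22.3% in all. Both tests were edgeR quasi-likelihood tests on UMIs summed per sample, paired by sample, with an adjusted p below 0.05. Both comparisons share the members. Here and in equal numbers per depth step, the signal genes set members apart from the cells compared. Differences in genes that vary with the signal genes were in part set by this and are a description. Of the higher genes 984 were called in both, 53.4% of those against all other cells and 73.7% of those against matched cells. Of the lower genes 712 were called in both, 30.3% and 54.4%, and 98 genes were called in opposite directions. In equal numbers per depth step, 1039 of 9753 genes were higher and 990 lower. TCR-induced genes were then higher for 13 of 16 (median 0.94), NF-kappaB genes for 13 of 18 (median 0.55), and resting genes lower for 12 of 14 (median -0.57). Of the 20 largest rises described next, 17 could be tested there and 17 were called.

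Itgb8 had the largest rise against all other cells, among genes with at least 50 UMIs in members and the same direction in every sample. It encodes the integrin chain that helps to activate TGF-beta and lies on chromosome 12 from 119158022 to 119238802. It was at 15.4, 29.6 and 54.0 CPM (lowest, median and highest sample) in members and at 1.87, 2.35 and 4.03 CPM in the other cells. No member sample overlapped with any sample of other cells, and the log2 fold change was 3.51 ± 0.19 (SE; adjusted p = 1.4e-20). Against matched cells it was 4.12 ± 0.24 (adjusted p = 8.7e-15), and 3.63 ± 0.28 in equal numbers per depth step, where Tmod1 was larger (4.16 ± 0.34). Lad1, which encodes an anchoring filament protein of epithelia, was at 6.51, 17.4 and 38.8 CPM in members and at 1.08, 1.82 and 2.37 CPM in the other cells. These groups did not overlap either, with a log2 fold change of 3.47 ± 0.24 (adjusted p = 6.6e-17).

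Pdcd1, the inhibitory receptor PD-1, was at 21.5, 25.1 and 32.6 CPM in members and at 4.16, 5.55 and 6.51 CPM in the other cells. Every member sample was above every other sample, and the log2 fold change was 2.19 ± 0.15 against the other cells and 2.85 ± 0.17 against matched cells. Lrrc32 encodes GARP, which holds latent TGF-beta at the cell surface. It rose by 2.30 ± 0.31 and 3.80 ± 0.44 on the log2 scale, from a low level of 1.01 CPM in the median sample of other cells to 5.14 CPM in members. Rgs16, a regulator of G protein signals, rose by 3.17 ± 0.29, Gadd45b, a stress-response gene, by 2.31 ± 0.19, and Tagap, a GTPase activating protein of activated T cells, by 2.25 ± 0.12. Tmod1, an actin capping protein, Trpm1, a cation channel, Car8, Kif26b, Scel, Gpm6b, Dnah12, Prr5l, Slc16a3 and Cc2d2b complete the 17 named genes of the 20 largest rises. For all 20 the samples of members lay above those of the other cells, and all 20 were called in each kit alone, against matched cells, and without the 273 cells. Lad1 rose by 3.54 in WT and 3.39 in Mini, and Pdcd1 by 1.99 and 2.47. These genes were chosen from the same samples, so their agreement between samples and kits is a description. The 20 were the largest rises of 1118 genes that were called, had at least 50 UMIs in members and rose in every sample. The share of all tested genes without overlap is not given. Absence of overlap, for these and other named genes, is thus a description. The log2 fold change of members over other cells differed between kits for 34 of 15087 genes (0.225%). It was higher in Mini for 22 (0.146%) and lower in Mini for 12 (0.0795%), a balance that turned over when some single samples were left out (27 higher and 36 lower without WT sample 1), with 14 to 63 genes in all.

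**Figure D3:**
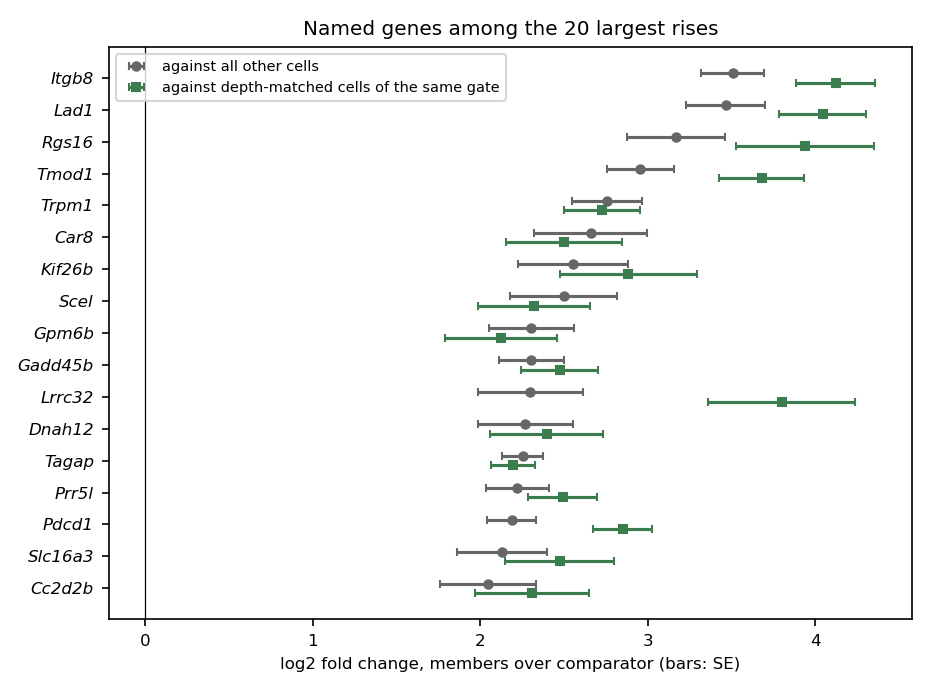
Log2 fold change (horizontal axis) with SE of the 17 named genes among the 20 largest rises, over 8 samples. Circles compare members with all other cells and squares with matched cells. All values lie above 2, and Itgb8, Lad1, Rgs16, Tmod1, Lrrc32 and Pdcd1 are among those that are larger against matched cells.

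Among the 10 largest falls were the cell cycle genes Kif11, Cenpe, Cenpf and Kif23. The limit on Mki67 and Top2a sets these falls in part, and no list of cell cycle genes was counted. Kif11, a motor of the mitotic spindle, was at 9.93, 15.9 and 34.4 CPM in members and at 206, 223 and 292 CPM in the other cells. The groups did not overlap. Its log2 fold change was -3.75 ± 0.09 against the other cells and -0.00 against matched cells, which met the same limit. Of the 10 largest falls, 4 were lower against matched cells.

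Of 16 genes that TCR signals induce, 13 were higher against the other cells, with a median log2 fold change of 0.98, and 13 were higher against matched cells, with a median of 0.95. The median of all genes tested was -0.02 and -0.01. The rule chose members by Nr4a3, which TCR signals also induce, so these counts were in part set by the rule. Cd69, which holds cells in the tissue after activation, was at 78.2, 117 and 162 CPM in members and at 30.1, 39.2 and 45.1 CPM in the other cells. The groups did not overlap, and the log2 fold change was 1.59 ± 0.07 (adjusted p = 1.3e-24). Cd5, an inhibitory receptor whose level follows the strength of self recognition, was at 564, 671 and 839 CPM against 222, 248 and 312 CPM, a rise of 1.34 ± 0.04. Egr3, an early transcription factor, rose by 1.61 ± 0.17 and Egr2 by 1.42 ± 0.20, with Nab2, a partner that restrains them, at 1.41 ± 0.11. Nr4a2 rose by 1.19 ± 0.10. Nr4a1, a related receptor named after its values were seen, had medians of 379 CPM in members and 146 CPM in matched cells, without overlap, and a log2 fold change of 1.25 ± 0.06 against matched cells.

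Of 19 negative feedback genes, brakes on the same signal, 14 were higher against the other cells (median 0.39), and 14 were higher and 1 lower against matched cells (median 0.28). Spry2, an inhibitor of Ras signals, rose by 1.78 ± 0.27, and Cish, a suppressor of cytokine and TCR signals, by 1.56 ± 0.19. The phosphatase genes Ubash3b and Dusp4 rose by 1.29 ± 0.07 and 1.14 ± 0.10. Cblb, a ubiquitin ligase that limits activation, was at 453, 602 and 699 CPM in members and at 258, 282 and 311 CPM in the other cells. Its groups did not overlap.

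The NF-kappaB family and its targets showed 16 of 18 genes higher in both comparisons, with medians of 0.61 and 0.51. Relb, a subunit of the non-canonical pathway, was at 51.3, 66.9 and 92.5 CPM in members and at 13.8, 20.0 and 21.4 CPM in the other cells. It did not overlap between the groups, and rose by 1.82 ± 0.09 (adjusted p = 4.4e-22). Its partners Nfkb2, Nfkb1 and Rel rose by 1.16 ± 0.09, 1.22 ± 0.04 and 1.22 ± 0.06. Bcl3, a nuclear cofactor, rose by 1.25 ± 0.21 and Birc3, an inhibitor of cell death, by 0.68 ± 0.05. Without the 273 cells with dendritic, gamma-delta or Il2ra UMIs, 15 genes were higher against the other cells and 14 against matched cells.

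Of 19 costimulatory and inhibitory receptors and ligands, 15 were higher and 1 lower against the other cells (median 0.74). Against matched cells 14 of 18 were higher and 1 lower (median 0.62). Besides Pdcd1, the inhibitory receptors Cd160 and Tigit rose by 1.80 ± 0.26 and 1.32 ± 0.18. Cd200, a ligand that calms myeloid cells, rose by 1.65 ± 0.15. The TNF receptor genes Tnfrsf1b and Tnfrsf18 rose by 1.38 ± 0.06 and 1.31 ± 0.15. Ctla4, named after its values were seen, was at 59.1, 87.8 and 112 CPM in members and at 61.0, 73.3 and 95.6 CPM in matched cells. It overlapped and was not called (adjusted p = 0.0623), but in equal numbers per depth step it was called, with a log2 fold change of 0.27 ± 0.08 (adjusted p = 0.0131).

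Genes of regulatory T cell precursors were higher for 9 of 14 tested in both comparisons, with 1 lower against all other cells and medians of 0.97 and 0.83. Ikzf4, the Ikaros family factor Eos, was at 13.1, 19.5 and 25.1 CPM in members and at 5.72, 6.33 and 7.53 CPM in the other cells. These did not overlap, and the rise was 1.53 ± 0.15. Tnfrsf4, which encodes OX40, rose by 1.10 ± 0.15, and Il2rb, the beta chain of the interleukin 2 receptor, by 1.08 ± 0.12. Il2ra rose by 1.07 ± 0.10 but overlapped between the groups, and without the 273 cells, which were chosen in part by Il2ra, it was not called. Genes of gut epithelial T cell precursors were higher for 7 of 12 and lower for 1 (median 0.50), and for 5 and 1 of 10 against matched cells (median 0.24). Runx3, a factor of cytotoxic T cells, rose by 0.84 ± 0.06, and Itgae, the integrin chain that binds epithelial E-cadherin, by 0.92 ± 0.09.

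Of the other Ikaros genes, Ikzf3 was higher by 0.73 ± 0.03 and Ikzf1 by 0.27 ± 0.03, while Ikzf5 had a log2 fold change of -0.35 ± 0.12 that was not called without the 273 cells (adjusted p = 0.0516). Among 14 factors of T cell identity 6 were higher and 4 lower (median 0.05). Bach2, a repressor of effector programmes, was at 1245, 1417 and 1767 CPM in members and at 492, 530 and 748 CPM in the other cells, and the groups did not overlap. It rose by 1.36 ± 0.04, and by 0.94 ± 0.04 against matched cells. Tox, which positive selection induces, rose by 0.98 ± 0.03, Tox2 by 0.92 ± 0.12, Lef1 by 0.50 ± 0.03 and Gata3 by 0.36 ± 0.04.

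Death and survival genes were called in both directions. Of 19 tested, 7 were higher and 3 lower in both comparisons, with medians of 0.08 and 0.13. Of all genes tested, 12.2% and 11.3% were higher and 15.6% and 11.1% lower. The count of lower genes was thus near that of all genes and is no result of the list. Bcl2l11, the death inducer BIM, was at 453, 546 and 675 CPM in members and at 342, 402 and 563 CPM in the other cells. The groups overlapped, and the paired log2 fold change was 0.39 ± 0.04. The survival gene Bcl2 rose by 0.82 ± 0.03, and by 0.43 ± 0.03 against matched cells. The related Bcl2a1b and Bcl2a1d rose by 1.18 ± 0.20 and 1.16 ± 0.22, and reads of these near-identical copies may have been split between them. Bid, a further death inducer, fell by 0.58 on the log2 scale against the other cells. It was not called against matched cells (-0.03, adjusted p = 0.894) or in equal numbers per depth step (0.07, adjusted p = 0.825). Bcl2l1 and Bmf, named after their values were seen, were lower in equal numbers per depth step. Bcl2l1, the survival gene BCL-XL, was at -0.53 ± 0.05 (edgeR adjusted p = 1.4e-09). Bmf, a death inducer, was at -0.55 ± 0.08 (edgeR adjusted p = 3.6e-06).

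Genes of resting cells were lower in members and genes of selected cells higher. Of 15 genes of resting cells with both coreceptors, 13 were lower and 1 higher against the other cells (median -0.41), and 12 were lower against matched cells (median -0.59). Rag2, a recombinase of TCR gene assembly, had a log2 fold change of -0.73 ± 0.07, Arpp21, an RNA binding protein of that stage, -0.63 ± 0.03, and Dntt, which adds bases at the joints, -0.58 ± 0.03. All 15 positive selection genes were higher against the other cells (median 0.88) and 13 were against matched cells (median 0.63). Ccr7, the receptor that guides cells to the medulla, was at 154, 195 and 265 CPM in members and at 56.0, 63.0 and 85.1 CPM in the other cells, without overlap. Maturation and egress genes were higher for 13 of 16 and lower for 1 (median 0.37), but for 7 and 4 against matched cells (median 0.20). S1pr1, the receptor for leaving the thymus, rose by 0.79 ± 0.11 with overlapping groups.

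**Figure D4:**
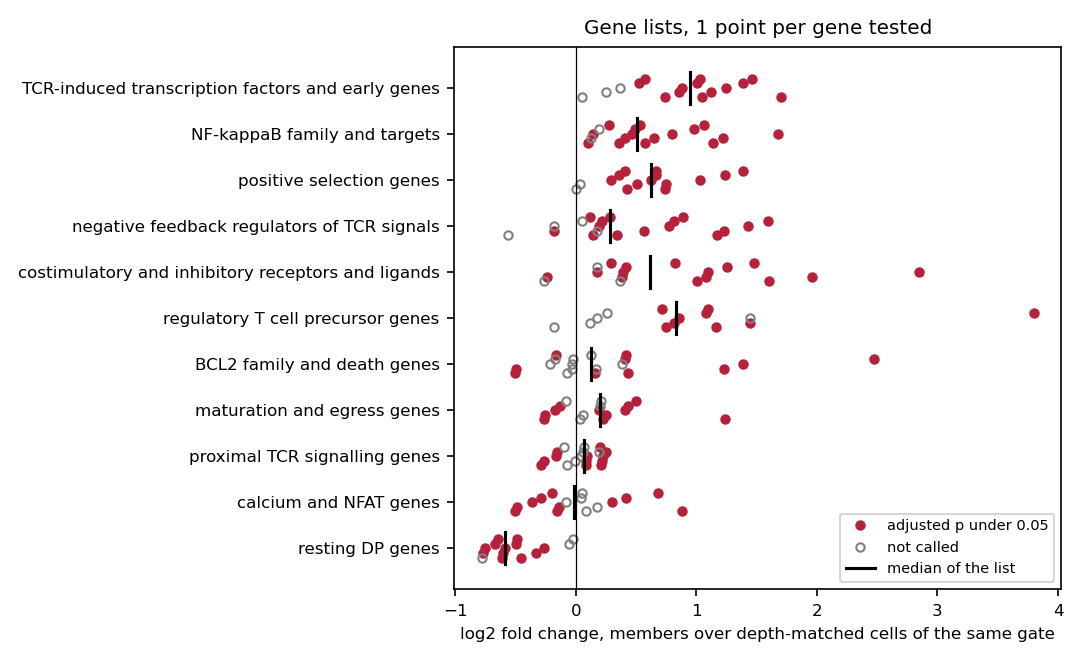
Log2 fold change of members over matched cells (horizontal axis) for each gene of 11 lists. Filled points passed the adjusted p of 0.05 in edgeR, open points did not, and the black line is the median of the list. Lists of TCR-induced, NF-kappaB and positive selection genes lie to the right of 0 and resting genes to the left. The signal genes chose the members, so shifts of genes that vary with them were in part set by the rule.

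The coreceptors were compared with each cell thinned to 3000 UMIs, against cells of the same limits that were not members. UMIs of both Cd4 and Cd8 genes were found in 46.4% ± 9.59 of members and 65.6% ± 7.54 of those cells (SD, n = 8). The share was lower in all 8 samples (exact paired permutation test, two-sided p = 0.007812, the smallest possible, adjusted p = 0.01042 over 8 tests). Cells with only Cd8 UMIs were 23.7% of members and 15.7% of the comparison, higher in 8 of 8 samples (exact p = 0.007812). Cells with neither were 16.7% ± 4.88 and 6.86% ± 1.93, also higher in 8 of 8 (exact p = 0.007812). Cells with only Cd4 UMIs were 13.2% and 11.8%, higher in 7 of 8 (exact p = 0.01562), which did not pass without the 273 cells (exact p = 0.1172). Absence of a UMI at this depth does not show that the gene was off.

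Of 19 proximal TCR signalling genes, 12 were higher and 1 lower against the other cells (median 0.27), but 8 and 4 against matched cells (median 0.07). Fyn, a kinase next to the receptor, rose by 0.58 ± 0.03 and Prkcq, the kinase PKC-theta, by 0.39 ± 0.03. Of 16 calcium and NFAT genes, 8 were higher and 5 lower (median 0.07), and 4 and 7 against matched cells (median -0.01). Nfatc1 rose by 0.95 ± 0.05, while Nfatc3 had a log2 fold change of -0.48 ± 0.03. Chemokine and adhesion receptors were higher for 11 of 16 and lower for 2 (median 0.55), and cytokine receptor and STAT genes for 16 and 1 of 19 (median 0.32). Against matched cells these counts were 8 and 3 of 15 (median 0.29) and 9 and 3 of 19 (median 0.12). Among these Ccr4 rose by 0.99 ± 0.11 and the interleukin 21 receptor gene Il21r by 0.70 ± 0.04.

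Genes of early and other lymphocytes moved in both directions. Kit was at 21.9, 27.1 and 42.7 CPM in members and at 9.20, 11.3 and 14.0 CPM in the other cells, without overlap. Trdc, the constant gene of the delta chain, was at 16.2, 28.6 and 39.3 CPM in members and at 49.6, 58.4 and 61.6 CPM in the other cells, also without overlap. Its log2 fold change was -1.06 ± 0.10 against the other cells but 0.26 and not called against matched cells. The added gamma-delta list had 6 of 7 genes higher in both comparisons (medians 1.02 and 1.00). This list was made after the data were seen, so its count is a description. Sox13, a factor of gamma-delta cells, rose by 1.33 ± 0.19, while without the 273 cells its log2 fold change was -0.52 and was not called. Sox13 UMIs helped to choose those cells, so this loss was in part set by the choice. Trgc1 and Trgc2 of the same list, which also helped to choose them, were not called against the other cells without the 273 cells either. Cd5, which did not choose them, was at 267 CPM in members with gamma-delta genes and at 720 CPM in the 1903 members without any of the 3 marks. Of 6 B cell markers 4 were lower against the other cells, among them Cd79a, a signalling chain of the B cell receptor, at -1.27 ± 0.40 and Pax5, the B lineage factor, at -0.67 ± 0.18. For Cd79a the value was -1.67 in WT and -0.25, not called, in Mini, and without the 273 cells neither gene was called (adjusted p = 0.0845 and 0.136). Their summed level was 50.7 to 146 CPM in members and 91.3 to 301 CPM in the other cells, and when cells with any UMI of B cell or other non-T markers were left out of both sets, 2700 genes were called against the other cells and 7 named genes lost their call.

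Among like cells of the same samples, the 6367 Tox-high cells met the same limits with at most 1 signal UMI and at least 5 UMIs of Tox. Members needed at least 5 signal UMIs, so the signal genes chose both sides. Differences in genes that vary with the signal genes were in part set by this and are a description. Against them 1213 of 10756 genes were higher in members (11.3%) and 996 lower (9.26%), 20.5% in all. TCR-induced genes were higher for 13 of 16 (median 0.73), NF-kappaB genes for 17 of 18 (median 0.49), and resting genes lower for 12 of 14 (median -0.40). Itgb8 had a median of 0.572 CPM in Tox-high cells and did not overlap with members, with a log2 fold change of 5.54 ± 0.23. Genes with the largest falls included Hs3st3b1, a heparan sulphate enzyme, with -0.91 ± 0.13, and Adcy1, an adenylate cyclase, with -0.95 ± 0.24. Dendritic cell genes were at 3 UMIs in 0.581% and gamma-delta genes in 0.707% of Tox-high cells, lower than in members, but Tox-high cells were shallower, with a median of 3132 UMIs, and such shares depend on depth. Without such cells the calls were 917 higher and 823 lower.

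The 844 Ccr7 cells had at least 2 Ccr7 UMIs and at most 1 signal UMI, with a median depth of 3661.5 UMIs. As with the Tox-high cells, the signal genes chose both sides. Here 712 of 9219 genes were higher in members (7.72%) and 827 lower (8.97%), 16.7% in all. Maturation genes were lower in members for 13 of 15 and higher for 1 (median -0.64), and resting genes were higher for 8 of 14 (median 0.34). TCR-induced genes were higher for 8 of 16 and lower for 2 (median 0.71). Il6ra, the interleukin 6 receptor, was at 11.9, 18.2 and 21.9 CPM in members and at 76.7, 103 and 162 CPM in Ccr7 cells. These did not overlap. Kit, a growth factor receptor of early thymocytes, was at 21.9 to 42.7 CPM in members and at 0 to 9.25 CPM in Ccr7 cells, without overlap. Trgc1 and Trgc2, constant genes of the gamma chain, were called higher in members, but nearly all of their UMIs lay in the 273 cells. The 1903 other members had 1.12 CPM of Trgc1 (11 UMIs) and 1.33 CPM of Trgc2 (13 UMIs), and both were then too low to test. UMIs of both genes helped to choose the 273 cells, so this was in part set by the choice.

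Cells with UMIs of Foxp3, the defining factor of regulatory T cells, that met the limits on T cell, cycling and Zbtb16 genes were few. With at least 2 Foxp3 UMIs there were 62 cells, only WT sample 4 and Mini sample 2-B held 10 or more, and 20 of 6868 genes were higher in members (0.291%) and 96 lower (1.4%), 1.69% in all. Il2ra had a log2 fold change of -3.44 ± 0.24, Ctla4 -3.21 ± 0.26 and Il2rb -2.94 ± 0.49. With at least 1 Foxp3 UMI, a choice made after seeing the data, all 8 samples entered with 200 cells. A Foxp3 UMI was found in 0.723% of all other cells and in 1 of 253 B marker cells, 0.395% (median depths 2991 and 1117 UMIs). Rag1, the partner of Rag2, had a median of 905 CPM in the 200 cells and 737 CPM in members. Then 198 of 8871 genes were higher in members (2.23%) and 244 lower (2.75%), 4.98% in all. Ctla4 was at 59.1, 87.8 and 112 CPM in members and at 382, 588 and 894 CPM in Foxp3 cells, without overlap. Lrrc32, Ikzf4 and Itgb8 had log2 fold changes of -3.28 ± 0.42, -1.93 ± 0.28 and -1.67 ± 0.24, below the Foxp3 cells in every sample. Lrrc32 was not called without cells with dendritic, gamma-delta or Il2ra UMIs (-1.67, adjusted p = 0.215). Il2ra was itself high in Foxp3 cells, with a median of 531 CPM against 137 CPM in members. Leaving out cells by Il2ra took out such Foxp3 cells, so this loss was in part set by the choice. Nr4a1 was higher in members by 0.89 ± 0.13 (adjusted p = 3.7e-10) and Cd69 by 0.75 ± 0.205 (adjusted p = 0.0080), both with overlapping samples. Arhgap20, Tnfrsf9 and Ikzf2 had medians of 102.6, 65.28 and 1560 CPM in the 200 cells and 107.7, 81.42 and 2230 CPM in members. For Nr4a3 and Hecw2 the medians were 81.11 and 14.25 CPM against 380.2 and 138 CPM. The signal genes chose only the members, so rises of genes that vary with them were in part set by the rule.

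**Figure D5:**
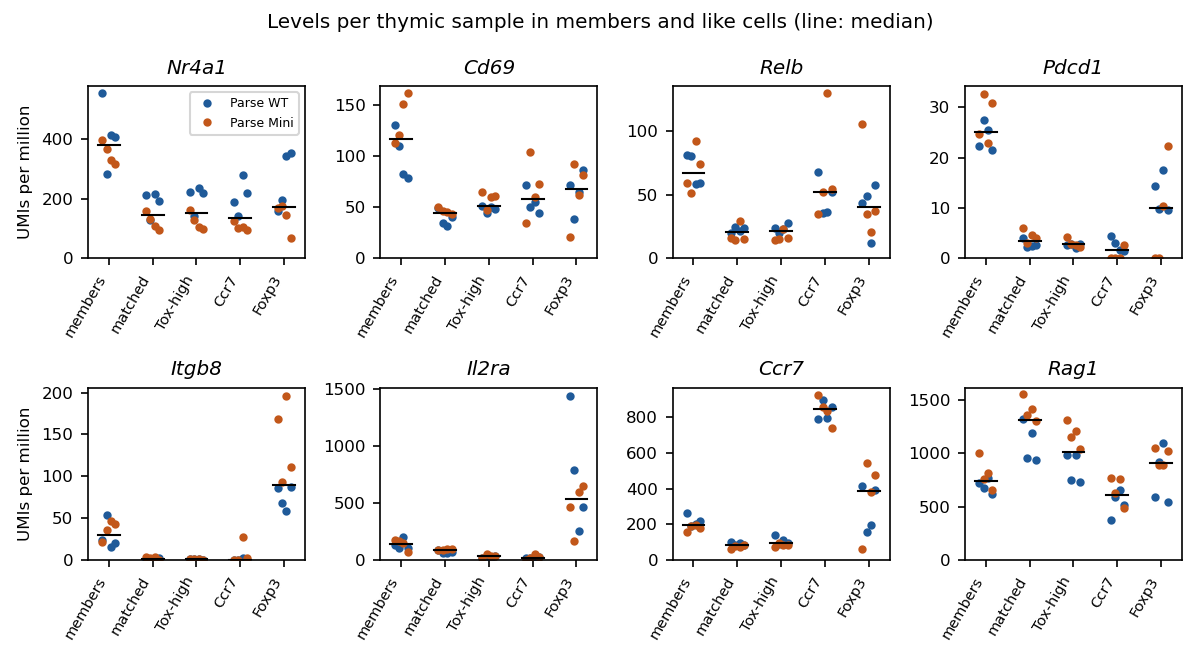
Level in CPM (vertical axis, linear) of 8 genes in members, matched cells, Tox-high, Ccr7 and Foxp3 (at least 1 UMI) cells. Points are thymic samples, blue for Parse WT and orange for Parse Mini, and lines are medians. Nr4a1 and Cd69 have their highest medians in members (379 and 117 CPM), Itgb8 and Il2ra in Foxp3 cells, and Ccr7 in the cells chosen by it. Tox-high and Ccr7 cells were limited to at most 1 signal UMI, so the signal genes chose both sides there. They also set members apart from matched cells, and chose the members but not the Foxp3 cells.

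Among the members, 775 had a Ccr7 UMI and 1401 had none, with median depths of 6667 and 5172 UMIs. Of 8759 genes tested, 649 were higher with Ccr7 (7.41%) and 431 lower (4.92%), 12.3% in all. Maturation genes were higher for 11 of 15 and lower for 1 (median 0.38), and resting genes lower for 8 of 14 (median -0.24). TCR-induced genes were lower for 6 of 16 and higher for 2 (median -0.33). Tnfrsf4 was at 18.8, 30.7 and 41.7 CPM with Ccr7 and at 1.31, 5.49 and 15.2 CPM without, and did not overlap. The metalloprotease gene Adam19 rose by 2.41 ± 0.18. Trgc2 was lower with Ccr7, with a log2 fold change of -2.46 ± 0.38. It was too low to test without the 273 cells, which its UMIs helped to choose. Gamma-delta genes were at 3 UMIs in 4.13% of members with Ccr7 and 7.99% without. NF-kappaB genes were higher for 10 of 18, but for 4 of 17 without the cells with dendritic, gamma-delta or Il2ra UMIs. The part of those cells was not tested.

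Members with more Nr4a3 than Ikzf2 UMIs were 197, and 1934 had more Ikzf2. Here 174 of 8793 genes were higher in the Nr4a3-led cells (1.98%) and 75 lower (0.853%), 2.83% in all. Cd83, a surface protein of activated and dendritic cells, was at 21.8, 59.9 and 248 CPM in Nr4a3-led and at 3.22, 4.39 and 15.6 CPM in Ikzf2-led members. The groups did not overlap, and the log2 fold change was 3.65 ± 0.33. Of the 223 Cd83 UMIs of members, 180 lay in the 48 cells with dendritic cell genes, with 421 CPM of Cd83 there and 3.87 CPM in the 1903 without any of the 3 marks. Without the 273 cells the Cd83 difference was 2.385 ± 0.84 and was not called (adjusted p = 0.226). Irf4, a factor that TCR signals induce, rose by 1.64 ± 0.33 but was not called either without them (1.12, adjusted p = 0.463). Fosl2, an AP-1 factor, rose by 1.65 ± 0.20, and by 1.80 without them. Dendritic cell genes were higher for 12 of 13 (median 3.27), and 9.14% of Nr4a3-led against 1.55% of Ikzf2-led members held at least 3 UMIs of them. That list was made after the data were seen, so its count is a description. Without cells with dendritic, gamma-delta or Il2ra UMIs, 37 genes were higher and 33 lower. Without WT sample 4, 160 genes were called in all.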

How the data were processed

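Reads of every sublibrary were processed by the authors with split-pipe on the mm10 genome of Ensembl, and they deposited 1 table of UMI counts per kit, without normalization. The cell tables give the tissue sample and first-round well, and 8 of their columns were not used. No split-pipe version is given in the sources used here. Members, gene lists and tests were chosen with earlier results of these data known. Named genes were the 20 largest rises and 10 largest falls (at least 50 and 200 UMIs in members, same direction in every sample), the 8 largest changes each way in further comparisons, and up to 6 called genes per list. Rag1, Nr4a1, Ctla4, Bcl2l1, Bmf and the genes of the comparison with at least 1 Foxp3 UMI were named after their values were seen.

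UMIs were summed per sample and cell set and tested with edgeR 4.0.16 (TMM, filterByExpr, quasi-likelihood, R 4.3.3), with the sample as a block since both sets come from 1 lobe, and Benjamini-Hochberg adjustment over all genes tested. Ribosomal RNA genes (Rn18s-rs5, mt-Rnr1, mt-Rnr2) were left out, and the genes of the rule were not called. Sets with fewer than 10 cells in a sample were left out. The fit was tested on simulated counts. DESeq2 1.42.0 was an alternative. Gene positions are from GENCODE M21 (GRCm38). Use of strand in counting was not stated, so overlapping genes are uncertain. Intervals cover counting error only.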

Additional observations from a re-analysis of the deposited data

Results flagged for a closer look

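Over 80 groups of 4 samples, 6 held a sample far from the other 3 by Dixon's test, where chance gives about 1 in 20. They were Nr4a3 in members of WT (507.4 CPM), Cc2d2b in WT (10.17 CPM), Kif11 in WT (34.44 CPM), the share of members in Mini (4.766%), 2610204G07Rik in Mini (20.85 CPM) and Prr5l in Mini (23.81 CPM).

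The difference of members from other cells was tested for a difference between the kits, which cannot be told apart from mice and run. In all 34 of 15087 genes were called, with a higher log2 fold change in Mini for 22 and a lower one for 12 (0.146% and 0.0795%, 0.225% in all), and 32 have a name. The count was 5 with DESeq2 and between 14 and 63 when 1 sample was left out. More genes were then lower than higher in Mini without WT sample 1 (27 higher and 36 lower), WT sample 3 (16 and 26), Mini sample 1-A (16 and 24) or Mini sample 2-A (16 and 20), and more were higher without each of the other 4. The log2 difference of members from other cells was higher in Mini for Sox5 (1.373, Mini minus WT), Myo1e (1.188), Pou2f2 (0.9947), Tshz2 (0.821), Chsy1 (0.5221), Chn2 (0.5016), Btla (0.4904), Ubash3b (0.4571), Septin11 (0.4447), Arid5b (0.4046), Kdm2b (0.3873), Nfatc1 (0.3871), Hivep3 (0.3837), Nr4a1 (0.3679), Bach2 (0.316), Bcl2l11 (0.3001), Cd5 (0.2904) and Nfkb1 (0.2717). For Cd5 the rise was 1.21 in WT and 1.511 in Mini, so that it was present in both kits. The differences were also positive for Chst3 (1.815), Ank2 (2.926) and Igha (4.101). They were negative for Anxa3 (-5.279), Ccl22 (-4.4), Grm8 (-2.758), Cd80 (-2.396), Irf8 (-1.577), Ncapd2 (-0.7295), Ccdc88a (-0.5454), Iftap (-0.3727), Slc7a11 (-0.3581), Ssbp2 (-0.2327) and Arpp21 (-0.2203). Anxa3, Ccl22, Cd80, Grm8, Irf8, Ank2 and Igha changed direction between the kits. Without the 273 members with dendritic, gamma-delta or Il2ra UMIs, and the like cells of the comparison, 24 of the 32 named genes were still called, of 51 in all. Cd80 (-0.2505), Grm8 (0.06634), Irf8 (-0.4593), Ccdc88a (-0.3742), Tshz2 (0.8698) and Ubash3b (0.4007) were then not called, and Anxa3 and Ccl22 were too low to test. Anxa3, Ccl22 and Cd80 are genes of the dendritic list, with 42, 34 and 98 UMIs in the 48 members with dendritic cell genes and 3, 2 and 15 UMIs in the 1903 members without any of the 3 marks. These genes helped to choose the 48 members, so the counts were in part set by the choice.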

How the results depend on the processing

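Outside the settings that leave out a sample, 1966 values of named genes kept their direction and side of the threshold, 99 lost their call and 14 changed direction. Against the other cells, 4194 genes were called, 2646 with matched cells of the same gate as the comparator, 2700 without cells with markers of other cell types and 2679 in Mini alone. With no filter on low counts 32.5% of calls were higher, against 44.0% with it. Of the calls of DESeq2, 0% were higher against Foxp3 cells (17.2% in edgeR), 82.3% for Nr4a3-led members (69.9%) and 100% between kits (64.7%). DESeq2 called 1335 genes against Tox-high cells, 21 against Foxp3 cells, 601 between members with and without Ccr7 and 5 between kits. Without a filter the Foxp3 count was 57 and the Nr4a3-led count 399. With at least 1 Foxp3 UMI the count was 442, and 235 without cells with dendritic, gamma-delta or Il2ra UMIs. Leaving those cells out gave 70 for the Nr4a3-led members, and a limit of 10000 UMIs gave 10 between kits.

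The samples are paired because both cell sets come from 1 lobe. Without this block, edgeR called 1547 genes against matched cells, 1102 against Tox-high cells, 36 against Foxp3 cells, 643 in the Ccr7 comparison, 131 for Nr4a3-led members and 2990 against the other cells.

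Leaving out 1 sample gave 3747 to 3955 genes against the other cells, 2350 to 2469 against matched cells (2029 in equal numbers per depth step, added after seeing the data), 1936 to 2105 against Tox-high cells, 1304 to 1576 against Ccr7 cells, 884 to 1076 in the Ccr7 comparison, 160 to 257 for Nr4a3-led members, 14 to 63 between kits, and a share of 3.757% to 4.246%. Between kits the count was 63 without WT sample 1, 14 without WT sample 2, and 15 without Mini sample 1-B or 2-B. The Foxp3 count rests on 2 samples and could not be fitted without either, nor at up to 10000 UMIs. The share was 5.88% of gated cells, 2.908% at 8 signal UMIs and 2.428% at 10.

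Some named genes changed direction. Against gated cells without a signal UMI these were ENSMUSG00000120992 (0.4233), Gzma (0.2043), Lig1 (0.04546), Notch1 (0.4599), Pola1 (0.0016) and Trdc (0.5266). Against matched cells they were Diaph3 (0.04315), ENSMUSG00000120992 (0.395), Gzma (0.1184), Lig1 (0.02752), Notch1 (0.06572) and Trdc (0.2582). Without cells with dendritic, gamma-delta or Il2ra UMIs they were Sox13 (-0.5231) and, for Nr4a3-led members, Ccdc18 (-0.9648). These lists cover genes in the comparison that named them. In the same setting Trgc1 (-0.5496) and Trgc2 (-0.8257) also turned against the other cells, and Notch1 between members with and without Ccr7 (0.2257). The cause was not tested. Only 62 cells with 2 Foxp3 UMIs and 197 Nr4a3-led members limit those comparisons.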
